A study of Homo sapiens with 6 samples.

Results

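Genes that sense, move and export cholesterol were examined in the RNA-seq of RL95-2 cells treated with adipocyte-conditioned medium (ADP-CM). The group was defined by gene symbol and not by a threshold on measured values, although earlier results of these data were known when it was chosen, and held 8 of the 23228 genes in the count tables: SREBF2, SCAP, INSIG1, INSIG2, STARD4, NPC1, ABCA1 and NR1H2. RL95-2 is an established human endometrial carcinoma cell line, grown here in RPMI with 10% FBS before the experiment. For 24 h the 3 control samples received serum-free RPMI and DMEM in a 1:1 mix, and the 3 ADP-CM samples received RPMI and ADP-CM in the same proportion. ADP-CM was DMEM in which mature adipocytes isolated from human adipose tissue had been kept, and it was filtered. Per the paper, the tissue was visceral and came from female patients with a high BMI. The number of donors or preparations behind the ADP-CM is not given in the sources used here. The control was therefore fresh medium and not medium from another cell type. Since nothing states whether replicates were separately grown cultures, the p-values measure the spread between these libraries, which may be technical.

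Cells hold their cholesterol steady through SREBP2, the transcription factor encoded by SREBF2. SREBP2 is made as a membrane protein of the endoplasmic reticulum and is escorted to the Golgi by SCAP, where proteases release its active part. When membrane cholesterol is high, INSIG1 and INSIG2 hold SCAP in the endoplasmic reticulum, and the genes for cholesterol synthesis and uptake, INSIG1 among them, are transcribed less. NPC1 exports cholesterol from lysosomes, STARD4 carries it between membranes, and ABCA1 loads it onto apolipoproteins outside the cell. ABCA1 is a textbook target of the oxysterol receptors LXRα (NR1H3) and LXRβ (NR1H2).

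The libraries held 16262614 to 18363033 reads on genes. Reads that lay on no gene made up 10.2% to 10.3% of reads in control and 11.5% to 11.6% in ADP-CM, and the part of this difference in the results was not tested. All 7 epithelial markers had at least 10 reads in every library, and their summed level was 4080 to 4150 CPM (read counts scaled to library size) in control and lower, 3440 to 3490 CPM, in ADP-CM, with no overlap. KRT8 and KRT18 gave most of these reads, and the markers did not all fall. Before scaling to depth, KRT8, KRT19 and CDH1 had fewer reads in every ADP-CM library than in any control library. EPCAM, MUC1 and PAX8 had more, and KRT18 overlapped. The ADP-CM libraries were deeper, so more reads of EPCAM need not mean a higher level. For the same reason, the overlap of KRT18 need not mean an equal level. Of 9 adipocyte markers 3 (ADIPOQ, LEP and CIDEA) had 0 reads in all 6 libraries, and the summed level of the 9 was 5.78 to 7.19 CPM in control and 4.42 to 5.23 in ADP-CM. LIPE gave most of the reads of this sum, and only LIPE among the 9 had at least 10 reads in every library. At least 10 reads in every library were found for 2 of 6 stromal, 1 of 5 leukocyte and 1 of 4 endothelial markers, with summed levels of 61.5 to 68.2, 6.90 to 8.33 and 60.6 to 66.4 CPM in control and 78.5 to 79.1, 9.87 to 11.9 and 54.5 to 61.6 in ADP-CM. COL1A1, CD68 and CDH5 gave most of the reads of the stromal, leukocyte and endothelial sums. The part of the adipocyte, stromal, leukocyte and endothelial markers in the results was not tested. The endothelial marker KDR had 0 reads in all libraries.

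INSIG1 and SREBF2 were lower in ADP-CM, and no gene of the group was called higher. With edgeR's quasi-likelihood test and Benjamini-Hochberg adjustment over all 12663 tested genes, 2 of the 7 tested genes were called lower at an adjusted p-value under 0.01, where 13.0% of all tested genes were. For calls in either direction the background was 26.5%, so 2 of 7 is near the share of any genes. None was called higher, where the background was 13.5%, and none was higher with DESeq2 either. At an unadjusted p under 0.05, 1 gene was higher, INSIG2. The median log2 fold change of the 7 genes was -0.09, beside -0.00 for all tested genes. A change of more than 1.5-fold together with the adjusted p-value was reached by INSIG1 alone, where 2.27% of all tested genes reached it in either direction and 1.14% by a fall. The eighth gene, ABCA1, had too few reads to be tested. On normalized CPM the 2 groups of libraries did not overlap for 4 of the 7 genes, where the background was 45.5%.

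**Figure D1:**
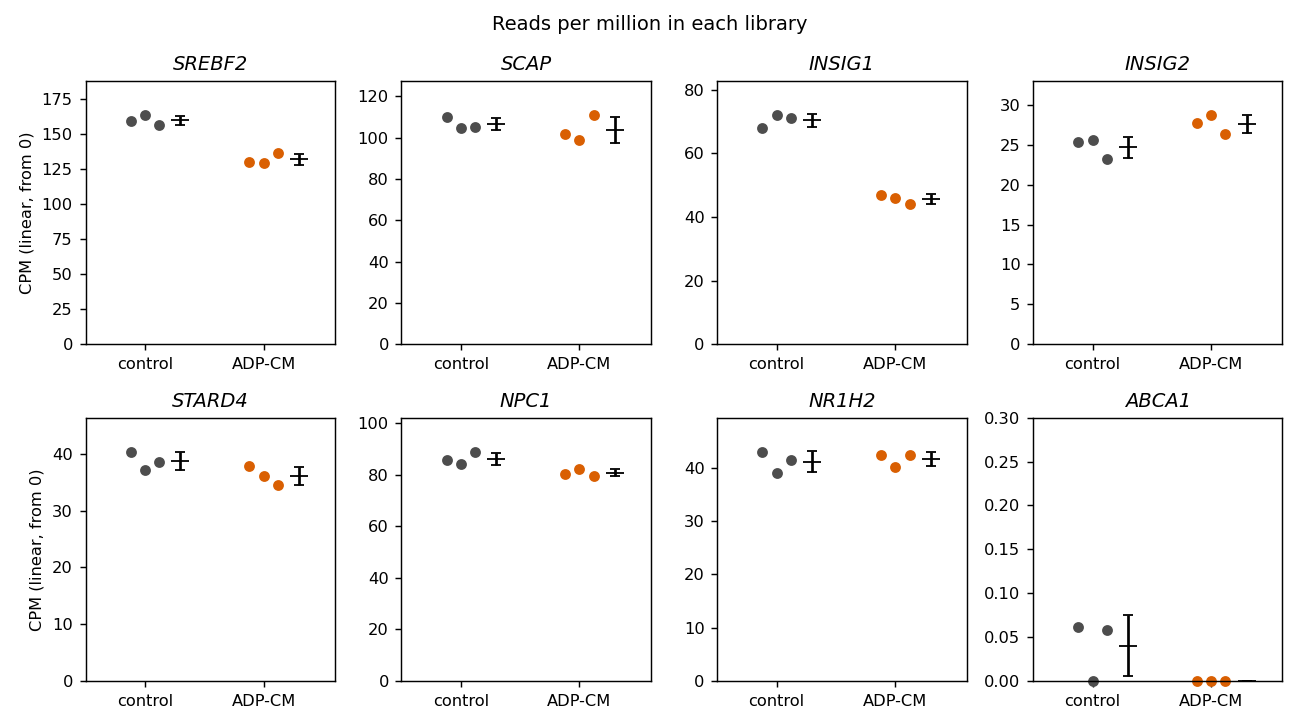
Read counts scaled to library size (CPM, linear axes from 0) of the 8 genes in each of the 3 control and 3 ADP-CM libraries, as points, with the mean and SD as bars. ABCA1 was scaled by library size only and the others by TMM. INSIG1 lay at 68.0 to 71.9 CPM in the control libraries and at 43.9 to 47.0 in the ADP-CM libraries, SREBF2 was also lower in all 3 ADP-CM libraries, and ABCA1 had 0 reads in 4 of the 6 libraries.

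The sequences upstream of the 2 genes that fell are shown because both genes are controlled by sterols at their own promoters. Each is the 250 bases before the RefSeq transcription start on the gene's strand (GRCh38.p14), which is chr22:41832855-41833104 on the plus strand for SREBF2 and chr7:155297628-155297877 on the plus strand for INSIG1. Capitals mark matches to 3 sets of letters searched on both strands: a sterol regulatory element, whose letters are the first run of capitals in the SREBF2 sequence, the E-box CACGTG, and the CCAAT box CCAAT, which reads ATTGG on the other strand.
SREBF2: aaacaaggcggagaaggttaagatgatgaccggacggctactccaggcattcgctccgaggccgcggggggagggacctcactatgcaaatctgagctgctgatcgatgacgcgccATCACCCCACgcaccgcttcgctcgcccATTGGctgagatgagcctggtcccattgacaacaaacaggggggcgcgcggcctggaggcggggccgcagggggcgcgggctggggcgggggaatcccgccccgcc
INSIG1: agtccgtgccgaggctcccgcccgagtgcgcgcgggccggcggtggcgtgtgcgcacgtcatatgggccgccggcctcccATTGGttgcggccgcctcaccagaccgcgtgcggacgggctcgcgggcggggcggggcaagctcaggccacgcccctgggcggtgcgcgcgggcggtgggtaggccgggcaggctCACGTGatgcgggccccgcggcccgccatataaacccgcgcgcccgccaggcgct
SREBF2 held the sterol regulatory element from 134 to 125 bases upstream of its start, followed by a CCAAT box from 106 to 102 bases upstream. Of the 27305 genes in the RefSeq promoter table, 12 (0.0439%) had these letters of the element in their 250 bases. INSIG1 held a CCAAT box from 170 to 166 bases upstream and an E-box from 55 to 50 bases upstream, but not the letters of the element. A looser form, TCACNCCAC, which overlaps the first, was in 1.09% of all genes and again only in SREBF2 among the 8. The E-box was present in 7.73% of all genes and, within the group, also in SCAP and ABCA1. The CCAAT box was in 37% of all genes and also in STARD4, with 2 copies. The LXR repeat was searched only as exact letters, a pair of AGGTCA in the same direction with 4 bases between them. These letters were in 0.0183% of all genes and in none of the 8. No mismatch was allowed, so the search cannot show that a repeat with other letters is absent. A match describes the letters of the window and is not evidence of binding.

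SREBF2 (chromosome 22, 42229109 to 42303310 on GRCh37) encodes the factor itself. Its reads numbered 2582, 2759 and 2680 in the control libraries (replicates 1 to 3) and 2354, 2379 and 2508 in the ADP-CM libraries. All 3 ADP-CM libraries were below all 3 control libraries although they were deeper. Normalized, SREBF2 fell to 132.0 ± 3.74 CPM from 159.8 ± 3.37 in control (SD, 3 libraries each). Its log2 fold change was -0.27 (SE 0.0298), with a 95% interval of -0.33 to -0.22 (edgeR, adjusted p = 1.21e-11). In RNA of a whole culture, a lower level in every cell and a loss from some of the cells cannot be told apart. Of its exonic bases 9.08% lie opposite the antisense gene SREBF2-AS1, and the strand setting of the counting is not given in the sources used here.

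SCAP (chromosome 3, 47455171 to 47518616), the escort of SREBP2 and its sterol sensor, did not differ detectably. Its reads were 1786, 1765 and 1803 in control and 1845, 1810 and 2038 in ADP-CM. The groups overlapped, and ADP-CM replicate 3 was the highest of the 6 libraries. The levels were 106.7 ± 2.98 and 103.8 ± 6.27 CPM (SD, 3 libraries each). The log2 fold change was -0.04 with a 95% interval of -0.11 to 0.03 (edgeR, adjusted p = 0.409). A change of SCAP RNA by 1.5-fold in either direction, 0.585 on the log2 scale, lies outside that interval.

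INSIG1 (chromosome 7, 155089486 to 155101945) had the largest change of the group. The control libraries (replicates 1 to 3) held 1104, 1214 and 1218 of its reads, and the ADP-CM libraries held 851, 844 and 808. The highest ADP-CM library was well under the lowest control library. Its level fell to 45.7 ± 1.57 CPM from 70.4 ± 2.05 in control (SD, 3 libraries each). This 1.54-fold fall, -0.63 on the log2 scale, had a standard error of 0.0423 and a 95% interval of -0.71 to -0.54 (edgeR, adjusted p = 9.94e-20). The interval reaches across the 1.5-fold limit, so the call at that limit is close, although the estimate stayed past it without any single library (log2 fold changes of -0.65 to -0.60). Among all tested genes, 1.59% had a larger fall than INSIG1. No exonic base of INSIG1 is shared with another annotated gene.

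INSIG2 (chromosome 2, 118846028 to 118868573), the paralog of INSIG1 that also retains SCAP, did not fall. Its reads were 410, 433 and 396 in control and 504, 527 and 486 in ADP-CM, with all 3 ADP-CM libraries above the controls. The levels were 24.7 ± 1.34 and 27.7 ± 1.17 CPM (SD, 3 libraries each). The log2 fold change was 0.16, with a 95% interval of 0.04 to 0.29. The adjusted p-value of 0.0258 from edgeR missed the threshold of 0.01.

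The ratio of the 2 INSIG genes was lower in the ADP-CM libraries. Control replicates 1, 2 and 3 had 2.69, 2.80 and 3.08 reads of INSIG1 for each read of INSIG2, and the ADP-CM replicates had 1.69, 1.6 and 1.66. The ratio differed by -0.79 on the log2 scale, from a mean log2 ratio of 1.51 ± 0.0984 for control to one of 0.72 ± 0.0392 for ADP-CM (SD, 3 libraries each). The ratio of the 2 SREBP genes was lower as well. The reads of SREBF2 for each read of SREBF1, which encodes the SREBP1 proteins of fatty acid synthesis, were 1.53, 1.55 and 1.5 in control and 0.895, 0.945 and 0.932 in ADP-CM, a difference of -0.73 on the log2 scale. SREBF2 thus gave more reads than SREBF1 in every control library and fewer in every ADP-CM library. Neither ratio overlapped between the groups, and the exact two-sided permutation test gave p = 0.100 for each, the smallest value that 3 against 3 libraries allow. These ratios were chosen after the values were seen and do not depend on the normalization.

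**Figure D2:**
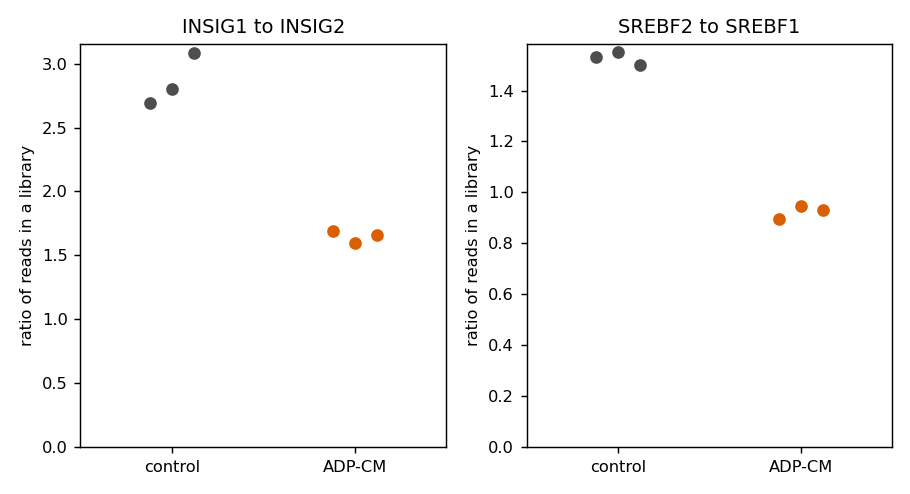
Ratio of the reads of INSIG1 to INSIG2 (left) and of SREBF2 to SREBF1 (right) in each of the 3 control and 3 ADP-CM libraries, on linear axes from 0. Points are libraries. On the left the control libraries lay between 2.69 and 3.08 and the ADP-CM libraries between 1.6 and 1.69. On the right they lay between 1.5 and 1.55 and between 0.895 and 0.945.

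The transport genes STARD4 and NPC1 did not pass the test. STARD4 (chromosome 5, 110831731 to 110848288) had 654, 628 and 660 reads in control and 684, 660 and 635 in ADP-CM. On normalized values, 38.7 ± 1.56 and 36.1 ± 1.63 CPM (SD, 3 libraries each), the groups overlapped. Its log2 fold change was -0.10 with a 95% interval of -0.20 to 0.00 (edgeR, adjusted p = 0.125). NPC1 (chromosome 18, 21086148 to 21166470), the lysosomal exporter, had 1388, 1419 and 1516 reads in control and 1451, 1507 and 1464 in ADP-CM. After normalization all 3 ADP-CM libraries lay below the controls, at 80.6 ± 1.36 against 86.1 ± 2.35 CPM (SD, n = 3 each). The log2 fold change was -0.09 with a 95% interval of -0.17 to -0.02, and the adjusted p-value of 0.0307 from edgeR missed the threshold. Neither interval reached the log2 fold change of INSIG1. Opposite NPC1, the gene RMC1 covers 6.38% of its exonic bases.

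The LXR arm of the group was split between a receptor that was present and a transporter with almost no reads. NR1H2 (chromosome 19, 50832910 to 50886645), which encodes LXRβ, had 698, 658 and 711 reads in control and 770, 736 and 780 in ADP-CM. Scaled to depth the groups overlapped, at 41.2 ± 2.06 and 41.7 ± 1.35 CPM (SD, n = 3 each). The log2 fold change was 0.02 with a 95% interval of -0.08 to 0.12 (edgeR, adjusted p = 0.810), and it became -0.02 without control replicate 2. The gene NAPSA lies opposite 22.1% of the exonic bases of NR1H2. ABCA1 (chromosome 9, 107543287 to 107690436) was counted 1, 0 and 1 times in control replicates 1 to 3 and 0 times in every ADP-CM library. A count of 0 allows up to 3 reads, which is 0.163 to 0.184 CPM in these libraries, so both groups were under the limit of detection and no fold change was computed. The limit covers counting error only.

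Levels were compared between genes per kb of exonic bases (GENCODE 44 on GRCh37). In control the order was SREBF2 (19.8 ± 0.419 CPM per kb), INSIG1 (19.3 ± 0.563), SCAP (17.0 ± 0.474), NPC1 (8.87 ± 0.243), NR1H2 (7.71 ± 0.385), STARD4 (6.81 ± 0.275) and INSIG2 (6.25 ± 0.339), as means and SD of 3 libraries. Only SREBF2 and INSIG1 overlapped their neighbor in that order over the 3 libraries. In ADP-CM the order began with SCAP (16.5 ± 0.997 CPM per kb) and SREBF2 (16.4 ± 0.465), which overlapped, followed by INSIG1 (12.5 ± 0.430). NPC1 (8.31 ± 0.140), NR1H2 (7.81 ± 0.253), INSIG2 (7.01 ± 0.296) and STARD4 (6.35 ± 0.287) came after and did not overlap. INSIG1 thus went from above SCAP to below it, while INSIG2 and STARD4, last in both orders, had no call. The exonic bases of all annotated isoforms were counted, so genes with long rare isoforms appear lower.

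**Figure D3:**
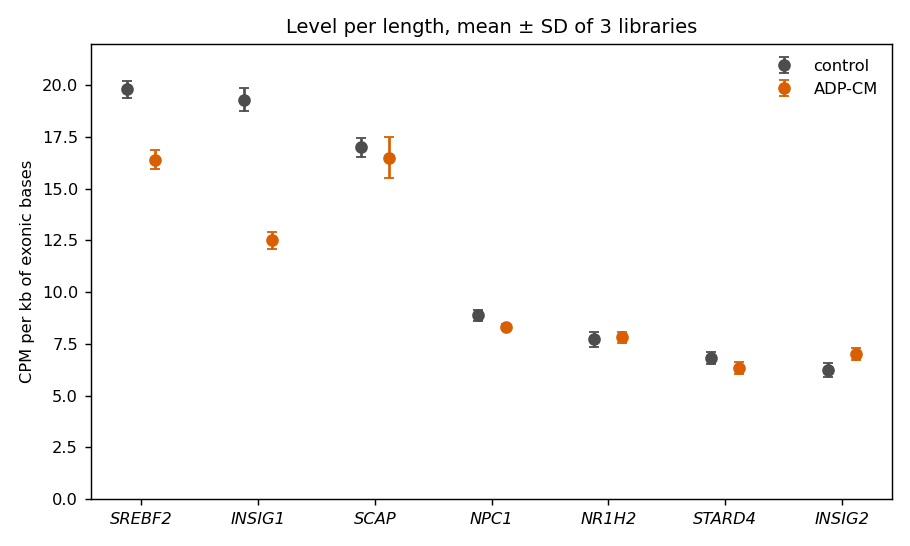
Level of the 7 tested genes in CPM per kb of exonic bases (linear axis from 0), as the mean of 3 control and 3 ADP-CM libraries with SD bars. SREBF2, INSIG1 and SCAP lay between 12.5 and 19.8 in both groups and the other 4 genes between 6.25 and 8.87.

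Most of the enzymes that make cholesterol were lower in ADP-CM. Of 21 tested sterol synthesis enzymes, 17 were lower and 0 higher at an adjusted p-value under 0.01 (edgeR; 1 was higher at an unadjusted p under 0.05, EBP, and 0 with DESeq2), where the background was 13.0% lower and 13.5% higher. Their median log2 fold change was -0.37. HMGCS1, which makes HMG-CoA, was at 34.2 ± 1.08 CPM per kb in control and 17.1 ± 0.529 in ADP-CM, a log2 fold change of -1.0, with 37.7% of its exonic bases opposite a gene without a symbol. IDI1, an isomerase of the isoprenoid steps, had a log2 fold change of -0.57. Only 3 of the 21 enzymes (HMGCS1, MVK and TM7SF2) had a larger fall than INSIG1, while 15 had a larger fall than SREBF2 and 18 a larger fall than STARD4 or NPC1. These counts set the fitted values of single genes side by side and are not tests of their difference. The 4 enzymes without a call were ACAT2, PMVK, LBR and EBP. ACAT2 had at most 13 reads in any library and shares 22.2% of its exonic bases with genes on the other strand. EBP had at most 48 reads and shares 36.4% of its exonic bases with a gene on the same strand.

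The genes for SREBP processing and the turnover of its partners had calls in both directions. Of 10 tested genes 2 were higher and 3 lower, where 13.5% of all tested genes were higher and 13.0% lower, and their median log2 fold change was -0.03. SREBF1 rose from 104.4 to 142.9 CPM as the mean of 3 libraries, with a log2 fold change of 0.45 (edgeR, adjusted p = 3.85e-19). The next largest rise was that of UBE2G2, a ubiquitin-conjugating enzyme of the endoplasmic reticulum, at 0.10 on the log2 scale. Among the lower genes, ERLIN2 and ERLIN1 had log2 fold changes of -0.13 and -0.09. The erlins act in protein degradation at the endoplasmic reticulum. UBE2G2 was not called with DESeq2 or without any of 5 single libraries (every library but ADP-CM replicate 3). ERLIN1 lost its call with DESeq2 and without control replicates 2 or 3 or ADP-CM replicates 1 or 3.

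For cholesterol transport and storage, 2 of 14 tested genes were higher and 2 lower, and 10 were not called. These shares are near those of all tested genes, 13.5% higher and 13.0% lower. The median log2 fold change was 0.01. GRAMD1A, which moves cholesterol from the plasma membrane to the endoplasmic reticulum, rose to 41.3 ± 2.22 CPM from 31.8 ± 1.06 in control (SD, 3 libraries each), by 0.38 on the log2 scale (edgeR, adjusted p = 2.56e-08). NCEH1, a hydrolase of cholesterol esters, had a log2 fold change of 0.12 and was not called with DESeq2 or without any single library other than ADP-CM replicate 3. TMEM97, a binding partner of NPC1, and SCP2, a sterol carrier, had log2 fold changes of -0.22 and -0.18. NPC2, the partner of NPC1 in the lysosome, and LIPA, the lysosomal lipase, had log2 fold changes of -0.04 and 0.01 (edgeR, adjusted p = 0.344 and 0.798), and both were chosen after their values were seen. GRAMD1B had at most 4 reads and was not tested.

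Among the partners and targets of LXR, 4 of 8 tested genes were higher and 0 lower (0 at an unadjusted p under 0.05 and 0 with DESeq2), where 13.5% of all tested genes were higher. The median log2 fold change was 0.14. LPCAT3, a lysophospholipid acyltransferase, rose to 36.3 ± 0.892 CPM from 26.2 ± 0.810 in control (SD, 3 libraries each), by 0.47 on the log2 scale, although EMG1 covers 66.0% of its exonic bases on the other strand. MYLIP, a ubiquitin ligase for lipoprotein receptors, had a log2 fold change of 0.27. ABCG1, a transporter that passes cholesterol to lipoprotein particles, had 10, 11 and 9 reads in control and 25, 24 and 21 in ADP-CM. Its log2 fold change was 1.09 (SE 0.314; edgeR, adjusted p = 0.00444). These reads did not overlap, but ABCG1 was not called with DESeq2 (adjusted p = 0.0592) or without any single library other than ADP-CM replicate 3. MYLIP was not called with DESeq2 or without control replicate 1, which left 2 called genes of the list in either case. The receptors RXRA and RXRB, with which LXR pairs, and NR1H3 had log2 fold changes of 0.02, -0.03 and -0.15 without a call. ABCG5 and ABCG8 had 0 reads in every library and PLTP had at most 4.

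**Figure D4:**
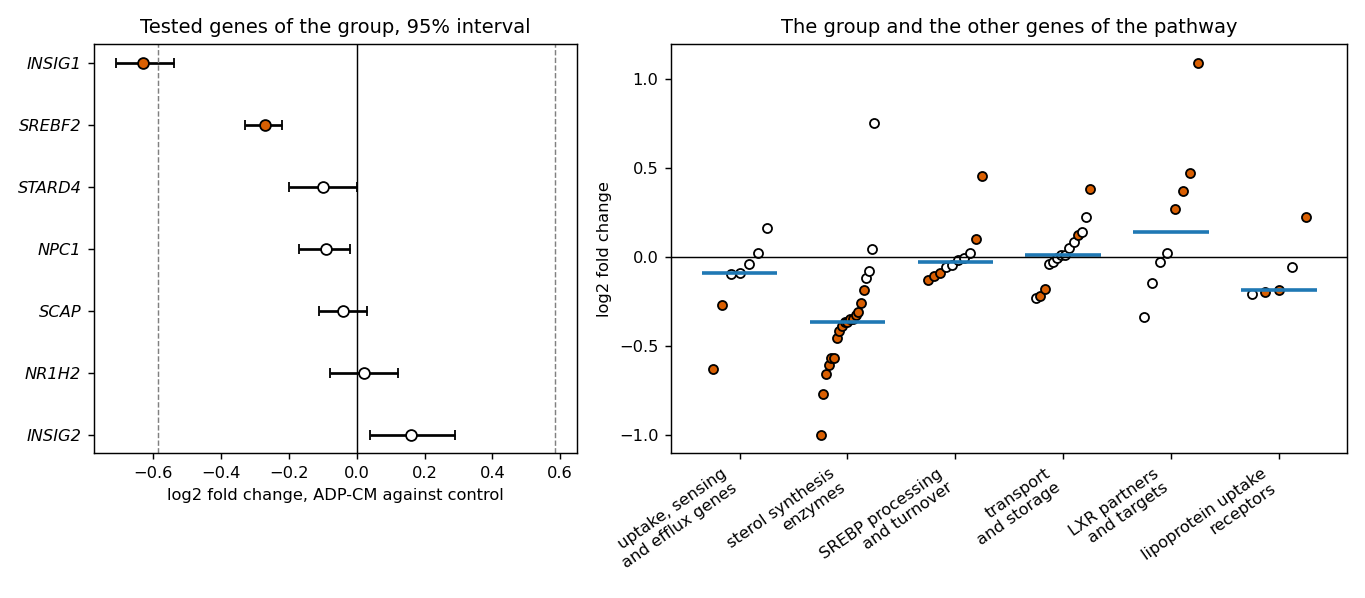
Left, log2 fold change (ADP-CM against control) of the 7 tested genes with 95% intervals, with dashed lines at a 1.5-fold change. Right, the same quantity for these genes and 5 lists of other pathway genes, with a blue line at each median. Filled points passed an adjusted p-value of 0.01. The medians were -0.37 for the sterol enzymes, -0.09 for the group and 0.14 for the LXR list. The group, labeled uptake, sensing and efflux genes, held no lipoprotein uptake receptor.

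Of 5 tested receptors and helpers of lipoprotein uptake, 1 was higher and 2 lower, where 13.5% of all tested genes were higher and 13.0% lower. SCARB1, the receptor for high-density lipoprotein, fell to 203.2 ± 4.05 CPM from 232.0 ± 5.19 in control (SD, 3 libraries each), with a log2 fold change of -0.19 (edgeR, adjusted p = 1.07e-08). LRPAP1, a chaperone of lipoprotein receptors, had a log2 fold change of -0.20. LRP1, a scavenger receptor, rose by 0.22 on the log2 scale (edgeR, adjusted p = 0.00282), and it was not called with DESeq2 or without control replicate 3, ADP-CM replicate 1 or ADP-CM replicate 3. LRP8 was not past the threshold (log2 fold change -0.06, edgeR, adjusted p = 0.187).

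The genes whose pattern over the 6 libraries was closest to that of INSIG1 were looked up by the Euclidean distance of log2 CPM, centered on each gene's mean, among 9569 genes with a mean of at least 10 CPM. The 5 nearest were C14orf1, MAN2B2, SLC1A4, PAG1 and CCNE2, with distances of 0.0694 to 0.111 and log2 fold changes of -0.60 to -0.56. C14orf1 was the nearest, with mean levels of 78 CPM (control) and 51.6 CPM (ADP-CM) beside 70.4 and 45.7 for INSIG1. With 2 groups of 3 libraries, this measure mainly finds genes with a fall of the same size.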

How the data were processed

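RNA of RL95-2 cells, 3 control and 3 ADP-CM libraries, was sequenced as 50 bp single reads from stranded poly(A) libraries. Per the authors, alignment to hg19 used TopHat2 and counting over RefSeq gene models used HTSeq, and the deposited values are raw counts. Versions and the strand setting are not given in the sources used here. HTSeq summary lines (such as reads on no gene, 10.2% to 11.6%) did not enter any test or library size.

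Counts were analyzed in R 4.3.3 with edgeR 4.0.16 (TMM, filterByExpr defaults, 12663 genes kept, quasi-likelihood test, Benjamini-Hochberg over all tested genes). CPM values are TMM-normalized and computed from the deposited counts. Standard errors were derived from the log2 fold change and the F statistic. Alternatives were DESeq2 1.42.0, its size factors, library sizes alone, 2 other filters, the replicate number as a term, an adjusted p-value of 0.05 and each library left out. All pairs of replicates differed by more than sampling noise (chi-square per degree of freedom 1.23 to 2.05). Both count tests were first tested on simulated data.

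The 8 genes and the lists of other genes were chosen with earlier results of these data known. The text names the 8 genes, up to 4 genes per list with the smallest p-values, and the 5 nearest patterns to the gene with the smallest p-value. Genes named outside this rule were chosen after their values were seen, namely NPC2, LIPA, RXRA, RXRB, MVK, TM7SF2, NR1H3 and those without a call or too few reads to be tested. Some of the genes that the rule names are not reported here. Positions and exon overlaps come from GENCODE 44 on GRCh37, the build of hg19, and promoters from the RefSeq table on GRCh38.p14, in which all 8 genes matched. No protein sequences were used.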

Additional observations from a re-analysis of the deposited data

How the results depend on the processing

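Neither the 2 lowered genes, SREBF2 and INSIG1, nor the 1 past the 1.5-fold limit changed under any alternative run at an adjusted p-value of 0.01. At 0.05, NPC1 and INSIG2 also passed with edgeR, which gave 3 lowered and 1 raised (18.3% and 18.4% of all tested genes). Neither NPC1 nor INSIG2 passed 0.05 with DESeq2 (adjusted p = 0.141 and 0.156). The same held without some single libraries, such as control replicate 3 (edgeR, adjusted p = 0.172 and 0.176). Over all alternatives that kept every library, the log2 fold changes were -0.63 to -0.62 for INSIG1 and -0.28 to -0.27 for SREBF2. NR1H2 was the only reversal among 395 fold changes and ratios recomputed, at -0.02 without control replicate 2, and 29 lost their call. DESeq2 called 1027 genes higher and 951 lower, against 1707 and 1650 with edgeR. It called 1 raised and 1 lowered gene of SREBP processing and turnover, 1 raised of transport and storage, 2 raised of the LXR list and 0 raised of the uptake receptors. EBP became the 1 raised sterol enzyme with no filter, with at least 10 counts in every library and at an adjusted p-value of 0.05. With single libraries left out, the counts ranged from 0 to 1 for raised sterol enzymes, 1 to 2 for raised and 1 to 2 for lowered genes of SREBP processing, 1 to 2 for raised transport genes, 2 to 4 for raised LXR genes and 0 to 1 for raised receptors, and the 17 lowered sterol enzymes stayed at 17.

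The correlations between libraries were too weak to settle whether the replicate numbers pair the samples. Deviations of same-numbered libraries correlated by 0.07, 0.01 and 0.10, and those of the other pairs by -0.09 to 0.03. ADP-CM replicate 2 correlated more with control replicate 1 (0.03) than with control replicate 2. With the replicate block 2 genes of the group were lowered and 0 raised, and the counts of all 5 lists were the same as without it (0 and 17 for the sterol enzymes, 4 and 0 for the LXR list, raised and lowered). The block gave 1786 higher and 1716 lower genes in all. Depth limits ABCA1, ABCG5, ABCG8, PLTP and GRAMD1B, whose RNA was at or near 0 reads, and ABCG1, ACAT2 and EBP, where few reads leave wide intervals.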
